A study of Mus musculus with 14 samples.

Results

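The comparison set 4 HDAC1cKO-HDAC2HET samples of activated mouse CD4+ T cells against 4 WT samples, 8 of the 14 samples of the series, and read it across all genes. HDAC1cKO-HDAC2HET cells came from *Hdac1* fl/fl *Hdac2* fl/+ mice on the C57BL/6 background that carry Cd4-Cre, which deletes *Hdac1* from both chromosomes and *Hdac2* from only 1 of them in T cells. WT cells came from littermates, and all mice were 6 to 12 weeks old. Naive CD4+ T cells (CD25-CD44loCD62L+) were sorted from spleen, the tissue the labels give, pooled with lymph nodes, cultured for 3 days with IL-2 and antibodies to CD3ε and CD28 but no polarizing cytokines (Th0), and sorted again as viable cells before RNA was taken, in 4 independent batches per genotype. Cd4-Cre acts from the stage at which thymocytes carry both coreceptors, so the cells had lacked the alleles since the thymus, and it deletes in CD8+ T cells as well. The other 6 samples of the series belong to a restimulation experiment with its own controls and were not used here.

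HDAC1 and HDAC2 are closely related class I histone deacetylases that sit in the Sin3, NuRD, CoREST, and MiDAC complexes. They remove acetyl groups from histone tails and from many other proteins, and they are found at repressed genes as well as at genes that are being transcribed. In T cells they are known for guarding the boundary between the CD4 and CD8 lineages, and they are also needed for cell division. The questions taken up below are which whole programs of the activated T cell differed between the genotypes, namely metabolism, protein synthesis, cell cycle, signalling, chromatin, adhesion, and genes that WT cells keep silent.

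Each sample gave 1 library, and the values are FPKM, fragments counted relative to the length of the transcript and to the number of mapped reads, which the authors made with Cufflinks. Estimated depths were between 38300000 and 56900000 fragments in WT and between 25800000 and 60500000 in HDAC1cKO-HDAC2HET libraries, with the lowest in HDAC1cKO-HDAC2HET replicate 3. A nameless locus was counted as a gene where their overlap made up at least 0.8 of the stretch they cover together. A value was obtained for 43930 genes, and the 15148 with a mean of at least 0.1 FPKM were tested with limma on log2(FPKM + 0.1), a scale that understates the changes of genes with low values. At a Benjamini-Hochberg adjusted p of at most 0.05, 3661 genes (24.2% of those tested) were higher and 4184 (27.6%) were lower in HDAC1cKO-HDAC2HET cells. Here a gene "rose" or "fell" when it passed that threshold. With a fold change of at least 2 in addition, 848 genes (5.6%) were higher and 845 (5.58%) lower, of which 264 and 166 differed at least 4-fold. The groups did not overlap for 7626 genes (50.3% of those tested), a trait that by itself sets no gene apart. The median log2 difference over all genes tested was -0.05. These shares and this median are the background against which each gene list has to be read, and since more than 1 in 2 genes passed the threshold without a fold limit, a list in which about as many members moved is not set apart by that count.

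*Hdac1* (chromosome 4, 129516104 to 129542713), the deleted gene, was read at 78.8, 79.6, 77.8, and 76.3 FPKM in WT replicates 1 to 4 and at 6.99, 10.7, 8.85, and 6.65 FPKM in HDAC1cKO-HDAC2HET replicates 1 to 4. *Hdac2* (chromosome 10, 36974544 to 37001889) was at 58.2, 60.3, 58.2, and 59.5 FPKM in WT and 34.0, 34.5, 37.0, and 36.0 FPKM in HDAC1cKO-HDAC2HET samples. The groups did not overlap for either gene (2-sided exact permutation test, p = 0.0286, the smallest that 4 against 4 samples allow), and *Hdac2* kept 0.599 of its WT mean. The CD4 T cell markers were abundant in all 8 samples but lower in HDAC1cKO-HDAC2HET cells. All 5 fell, and their summed level was 1463 to 1611 FPKM in WT against 1137 to 1289 FPKM in HDAC1cKO-HDAC2HET samples. Both CD8 markers rose to a summed level of 11.7 to 15.2 FPKM, from 3.28 to 5.96 FPKM in WT. Of 13 NK and innate-like T cell markers with a value, 4 rose and 2 fell, their sum went from between 39.1 and 57.6 FPKM to between 163 and 199 FPKM, and *Klra8* and *Tyrobp* were at 0 in every sample. Of 8 B cell markers only *Cd79b* rose, from 0.293 to 2.76 FPKM, and the 6 that were too low to test stayed under 0.225 FPKM in every sample. Of the 12 myeloid and the 10 red cell and platelet markers with a value, 10 and 8 were too low to test, the other 2 of each list did not pass the test, and 3 and 6 were at 0 in every sample. The part of these markers in the results that follow was not tested, and in such bulk samples more cells of a type and more RNA per cell cannot be told apart.

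**Figure D1:**
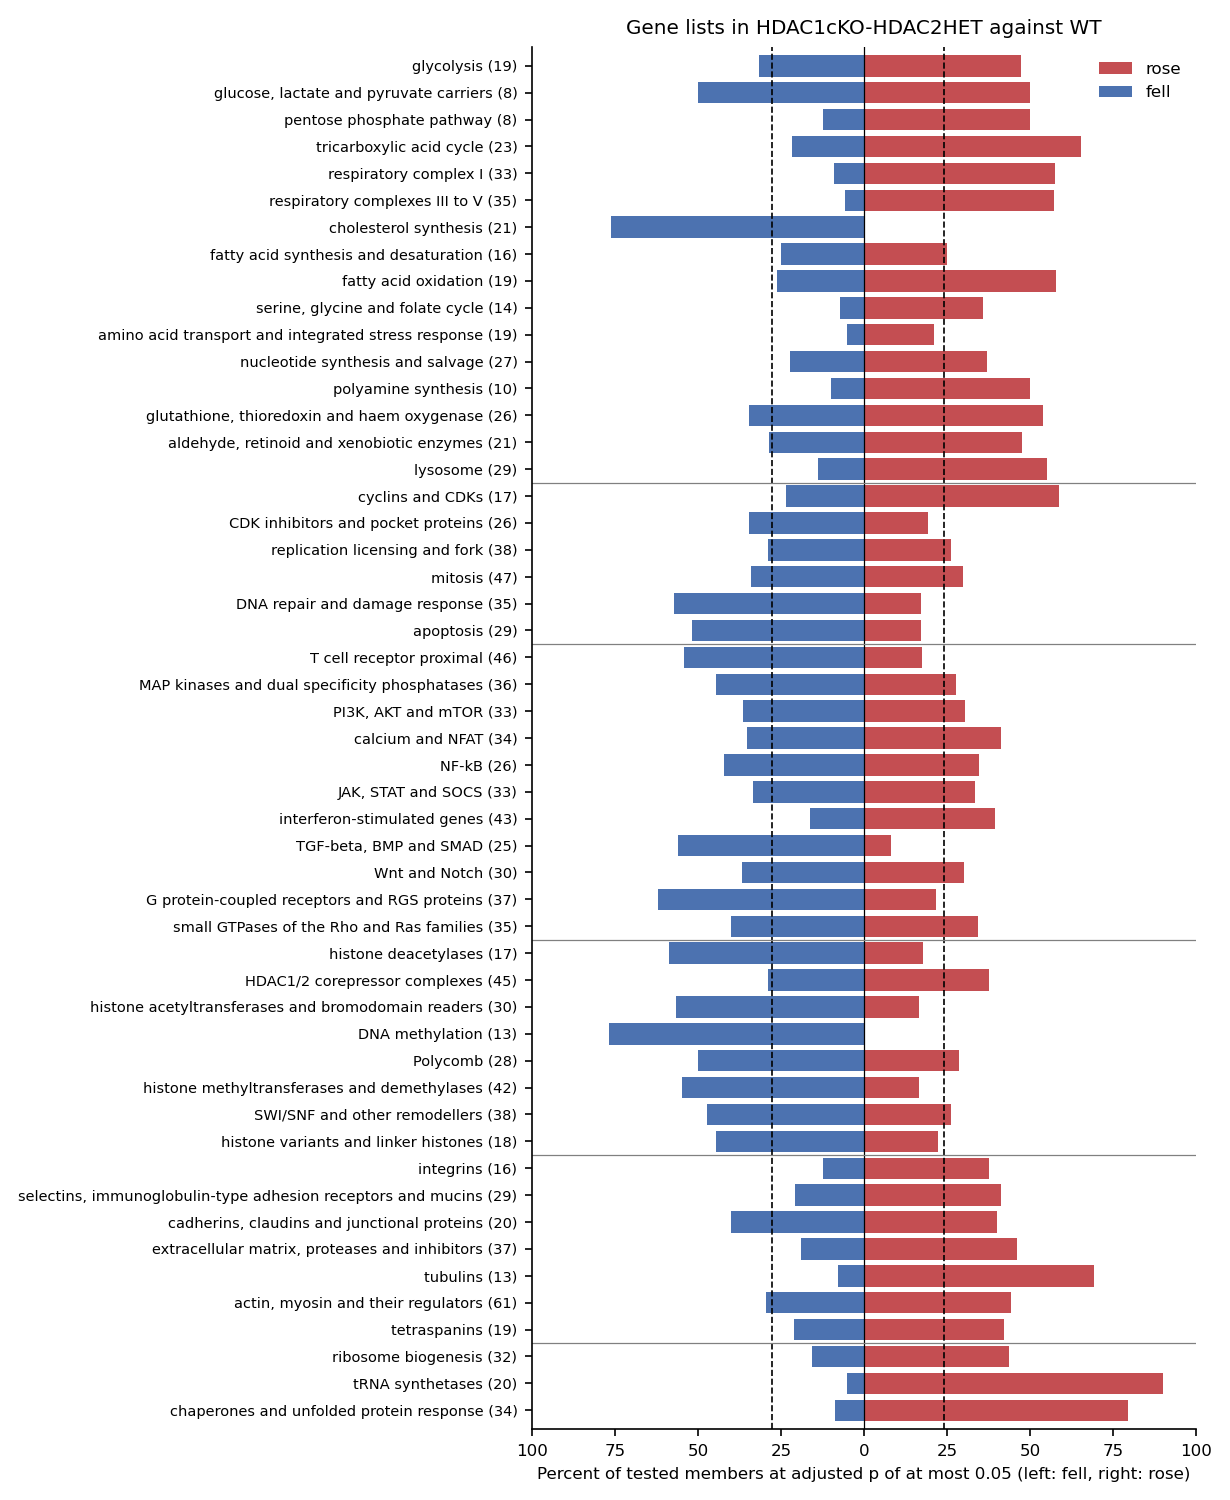
Counts of genes by program. For each gene list, the share of its tested members that rose (bars to the right) or fell (bars to the left) at an adjusted p of at most 0.05 is drawn in percent, and dashed lines mark the shares over all genes tested, 24.2% and 27.6%. The number of tested members stands in brackets. The cholesterol synthesis bar reaches only to the left, and the bars of tRNA synthetases and chaperones reach mainly to the right.

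Cholesterol synthesis was the only one of the 16 metabolic lists without a rise. Dividing T cells build membrane from sterols that they make from acetyl-CoA, and the genes of the pathway are switched on together by the factor SREBP2 when the sterol content of the endoplasmic reticulum drops. Of 21 members tested, 16 fell, 4 of them at least 2-fold, and none rose, and the median log2 difference was -0.79. The median over the members, taken in each sample relative to the WT mean, lay between -0.09 and 0.07 in WT and between -0.77 and -0.59 in HDAC1cKO-HDAC2HET samples on the log2 scale. Over the 14 members in whose span no other annotated gene lies, the median log2 difference was -0.56, with 11 falls. It was -0.57 over the 13 without another nameless locus, with 9 falls. *Hmgcs1*, *Fdft1*, and *Lss* are in neither set. *Hmgcs1* (chromosome 13, 119690379 to 119708260), which makes the HMG-CoA that enters the pathway, was at 244, 212, 230.3, and 231 FPKM in WT and 103, 93.2, 99.1, and 95.3 FPKM in HDAC1cKO-HDAC2HET samples, a log2 change of -1.23 (SE 0.05, limma adjusted p = 2e-06). Every HDAC1cKO-HDAC2HET sample lay more than 2-fold below every WT sample. *Fdft1*, the squalene synthase, went from 41.0 ± 2.45 FPKM (SD, n = 4) to 19.98 ± 0.991 FPKM, and *Msmo1*, which strips methyl groups from the sterol ring, from 78.7 ± 3.59 to 39.3 ± 3.73 FPKM. *Lss*, the lanosterol synthase, varied widely, with 52.8, 29.9, 51.0, and 32.5 FPKM in WT and 26.7, 17.6, 18.1, and 16.5 FPKM in HDAC1cKO-HDAC2HET samples, and the groups still did not overlap.

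*Sqle*, the squalene epoxidase and a control point of the pathway, was at 75.3, 70.3, 74.4, and 69.7 FPKM in WT and 49.3, 48.9, 53.3, and 46.7 FPKM in HDAC1cKO-HDAC2HET samples (log2 change -0.55, SE 0.05, limma adjusted p = 4.56e-05), a smaller fall than those above. The groups did not overlap. The 5 members that did not pass the test included *Srebf2* (150.3 against 129.7 FPKM), which encodes SREBP2, *Mvk*, and *Pmvk*. Fatty acid synthesis did not share the pattern, since 4 of its 16 members rose and 4 fell, and *Fasn*, the fatty acid synthase, was at 76.8 FPKM in WT and 74.99 FPKM in HDAC1cKO-HDAC2HET cells.

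**Figure D2:**
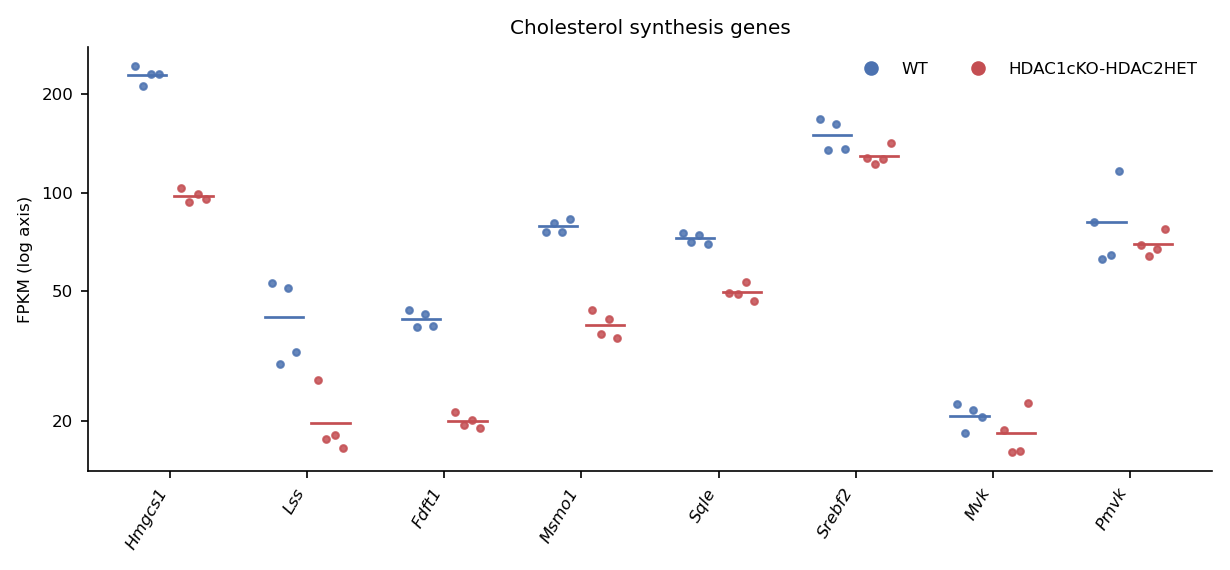
Cholesterol synthesis genes by sample. FPKM on a log axis is shown for the members named in the text, in each of the 4 WT and 4 HDAC1cKO-HDAC2HET samples, with bars at the group means. The groups are apart for *Hmgcs1*, *Fdft1*, *Msmo1*, and *Sqle*, and they overlap for *Mvk* and *Pmvk*.

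The promoter of *Hmgcs1* is shown because it was the member of the list with the largest fall and the only one of 15 with a promoter sequence to hold the letters TCACNCCAC, a form of the sterol regulatory element that SREBP2 binds (1.41% of the promoters of 9151 tested genes hold it on either strand). The sequence is from RefSeq on build GRCm38.p6, chr13:119690101-119690400 on the plus strand, 250 bases before to 50 after the start, with that element and each CCAAT box (CCAAT, or ATTGG on the other strand) in capitals.
Hmgcs1: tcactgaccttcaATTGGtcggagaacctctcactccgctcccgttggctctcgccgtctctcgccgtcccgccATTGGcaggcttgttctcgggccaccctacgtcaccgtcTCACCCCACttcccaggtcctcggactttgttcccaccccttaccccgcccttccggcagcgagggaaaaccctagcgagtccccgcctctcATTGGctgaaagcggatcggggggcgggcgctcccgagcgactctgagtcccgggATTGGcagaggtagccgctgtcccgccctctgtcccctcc
A CCAAT box, to which NF-Y binds beside SREBP2, was present in 14 of the 15 promoters (93.3%), against 43.1% of the promoters of all tested genes. Of the 14 genes, 11 fell, against 12 of all 15. A match of letters is a description of the window and says nothing about binding in these cells.

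Mitochondrial genes rose more often than they fell, by small steps. In the tricarboxylic acid cycle, which oxidizes acetyl-CoA, 15 of 23 members rose and 5 fell, with a median log2 difference of 0.24. In complex I of the respiratory chain 19 of 33 rose and 3 fell (median 0.17), and in complexes III to V 20 of 35 rose and 2 fell (median 0.19). *Idh2* (chromosome 7, 80094846 to 80115392), the mitochondrial NADP-dependent isocitrate dehydrogenase, was at 29.3, 29.4, 29.4, and 28.8 FPKM in WT and 57.7, 57.7, 56.0, and 56.4 FPKM in HDAC1cKO-HDAC2HET samples, a log2 change of 0.96 (SE 0.02, limma adjusted p = 2.38e-07). *Cs*, the citrate synthase that opens the cycle, was at 86.4, 90.2, 85.8, and 86.5 FPKM in WT and 183.8, 161, 158, and 160.1 FPKM in HDAC1cKO-HDAC2HET samples (log2 change 0.92, limma adjusted p = 6.52e-06). For both genes the groups lay far apart relative to the spread within them. *Ndufb5*, an accessory subunit of complex I, was the only respiratory chain member past 2-fold and went from 35.8 ± 1.48 to 82.6 ± 4.77 FPKM. The complex III subunits *Uqcrfs1*, *Uqcrq*, and *Cyc1* rose by 0.58, 0.57, and 0.56 on the log2 scale, and *Atp5b*, the catalytic subunit of the ATP synthase, by 0.37, from 841 to 1089 FPKM.

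The exception in the cycle was *Pcx* (chromosome 19, 4510472 to 4621752), the pyruvate carboxylase that refills oxaloacetate. It was at 13.6, 11.7, 15.5, and 11.2 FPKM in WT and 3.16, 2.78, 2.504, and 2.52 FPKM in HDAC1cKO-HDAC2HET samples, a log2 change of -2.20 (SE 0.12, limma adjusted p = 6.05e-06), and was the only member of the list to change at least 2-fold. Fatty acid oxidation resembled the cycle in direction, with 11 of 19 members higher and 5 lower and a median of 0.33. *Crat*, the carnitine acetyltransferase, was at 2.01, 1.60, 1.80, and 2.43 FPKM in WT and 9.51, 11.5, 8.22, and 11.03 FPKM in HDAC1cKO-HDAC2HET samples, *Eci1*, an enoyl-CoA isomerase, went from 11.97 ± 0.655 to 29.1 ± 1.19 FPKM, and *Acads*, the short-chain acyl-CoA dehydrogenase, from 21.7 ± 1.01 to 50.9 ± 1.19 FPKM. *Cpt1a*, which admits long-chain fatty acids into the mitochondrion, rose by 0.54 on the log2 scale, and *Acadm*, the medium-chain dehydrogenase, by 0.69. The brain-type isoform *Cpt1c* fell from 0.552 to 0.154 FPKM.

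Glycolysis did not move as a block. Of 19 members, 9 rose and 6 fell, and the members past 2-fold were isoforms best known from other tissues. *Eno3*, the muscle-type enolase, was at 51.5, 46.0, 39.7, and 44.9 FPKM in WT and 106, 123, 124, and 117 FPKM in HDAC1cKO-HDAC2HET samples, *Eno2*, the neuron-type enolase, rose from 3.75 to 9.20 FPKM, and *Aldoc*, the brain-type aldolase, fell from 16.8 to 5.99 FPKM. *Ldha*, the abundant lactate dehydrogenase subunit of activated T cells, rose by 0.31 on the log2 scale, from 1624 to 2009 FPKM. Among the carriers, *Slc2a1*, the main glucose transporter GLUT1, fell from 65.6 ± 7.49 to 45.7 ± 2.36 FPKM and *Slc2a6* from 7.20 ± 1.74 to 2.78 ± 0.364 FPKM, while the monocarboxylate carrier genes *Slc16a3* and *Slc16a6* rose by 0.47 and 1.04 on the log2 scale. In the pentose phosphate pathway *Taldo1*, the transaldolase, and *Pgd* rose by 0.92 and 0.75, and 1 of 8 members, *Rpia*, fell.

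Polyamine and serine pathway genes, which feed growth from amino acids, rose more often than they fell, though 8 of 14 serine pathway genes did not pass the test. *Odc1* (chromosome 12, 17544794 to 17551505), the ornithine decarboxylase that opens polyamine synthesis, was at 156, 159, 153, and 152 FPKM in WT and 237, 275, 327, and 347 FPKM in HDAC1cKO-HDAC2HET samples. *Srm*, the spermidine synthase, was at 128, 134, 143, and 131 FPKM in WT and 212, 253, 268, and 283 FPKM in HDAC1cKO-HDAC2HET samples. The WT samples were close together for both genes, and the lowest HDAC1cKO-HDAC2HET sample was in each case replicate 1. Of the 10 polyamine genes, 5 rose and 1, the spermidine acetyltransferase gene *Sat1*, fell. The serine and folate enzymes *Phgdh*, *Shmt2*, and *Mthfd2* rose by 0.51, 0.55, and 0.61 on the log2 scale, among 5 rises and 1 fall in 14 genes. Over the 9 of these without another nameless locus in their span, 2 rose and 1 fell. Over the 5 in whose span no other annotated gene lies, 1 rose and none fell. In nucleotide metabolism 10 of 27 rose and 6 fell. *Upp1*, the uridine phosphorylase, was at 0.0662, 0.0259, 0.265, and 0.0779 FPKM in WT and 2.10, 1.93, 2.46, and 2.75 FPKM in HDAC1cKO-HDAC2HET samples, and *Adssl1*, the muscle-type adenylosuccinate synthase, went from 0.951 ± 0.356 to 7.81 ± 1.36 FPKM. The integrated stress response did not move as a list, with 4 of 19 genes higher and 1 lower and *Atf4*, its central factor, at 203 FPKM in WT and 212 FPKM in HDAC1cKO-HDAC2HET cells. The gene that fell was *Ddit4*, an inhibitor of mTORC1, with 90.8, 79.4, 96.4, and 79.3 FPKM in WT and 52.1, 41.8, 34.1, and 38.2 FPKM in HDAC1cKO-HDAC2HET samples.

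Retinoid and detoxification genes held some of the widest differences in metabolism. *Crabp2* (chromosome 3, 87948666 to 87953376), which carries retinoic acid to its nuclear receptor, was at 25.9, 23.1, 26.1, and 22.5 FPKM in WT and 386, 365, 444, and 445 FPKM in HDAC1cKO-HDAC2HET samples, a log2 change of 4.06 (SE 0.08, limma adjusted p = 1.66e-07). *Dhrs3*, which turns retinal back into retinol, was at 15.5, 10.5, 11.3, and 16.3 FPKM in WT and 0.639, 1.42, 1.22, and 0.675 FPKM in HDAC1cKO-HDAC2HET samples, a log2 change of -3.68. The binding protein thus rose and the retinal reductase fell, with every sample of a group on its own side. *Aldh7a1* rose from 10.9 ± 0.272 to 41.6 ± 1.02 FPKM and *Aldh1a2*, which makes retinoic acid, from 0.298 ± 0.114 to 1.18 ± 0.176 FPKM, while *Aldh1b1* fell from 2.48 ± 0.178 to 0.687 ± 0.169 FPKM. In the glutathione and thioredoxin list 14 of 26 rose and 9 fell. *Gstt1*, a glutathione transferase, rose from 4.24 ± 0.470 to 25.2 ± 3.81 FPKM and *Gclm*, the regulatory subunit of the enzyme that starts glutathione synthesis, fell from 19.5 ± 0.947 to 11.5 ± 0.425 FPKM. In the lysosome 16 of 29 rose and 4 fell (median 0.31), led by *Cd63*, a tetraspanin of lysosomes and cytotoxic granules, with 0.178, 0.130, 0.246, and 0.452 FPKM in WT and 7.71, 8.40, 9.63, and 9.21 FPKM in HDAC1cKO-HDAC2HET samples. The proteases *Ctsl* and *Ctsw* went from 2.27 to 9.40 and from 1.92 to 6.71 FPKM. *Ctss*, the cathepsin that trims the MHC class II chaperone, fell from 96.9 to 68.0 FPKM.

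Most genes of tRNA charging and protein folding rose. Aminoacyl-tRNA synthetases load each amino acid onto its tRNA, and the chaperones of the endoplasmic reticulum are induced together in the unfolded protein response. Of 20 synthetase genes of the cytoplasm, 18 rose, 1 (*Farsb*) fell, and 1 (*Dars*) did not pass, with a median log2 difference of 0.40. Of 34 chaperone and unfolded protein response genes, 27 rose and 3 fell, with a median of 0.41. The medians over the members of both lists lay between 0.32 and 0.45 in every HDAC1cKO-HDAC2HET sample and within 0.05 of 0 in every WT sample on the log2 scale. *Tars*, the threonyl-tRNA synthetase, was at 64.2, 61.1, 63.6, and 62.2 FPKM in WT and 99.99, 104, 105, and 103 FPKM in HDAC1cKO-HDAC2HET samples (log2 change 0.71, SE 0.03, limma adjusted p = 1.67e-06). *Cars*, *Yars*, and *Aars* rose by 0.71, 0.62, and 0.31, so that no member reached 2-fold. Among the chaperones, *Creld2* was at 31.7, 33.0, 31.5, and 32.3 FPKM in WT and 60.3, 63.6, 65.5, and 68.4 FPKM in HDAC1cKO-HDAC2HET samples and *Sdf2l1* went from 43.3 ± 3.02 to 93.7 ± 6.21 FPKM; both encode secreted-pathway proteins that are induced by unfolded proteins.

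The sensors of the response behaved differently from one another. *Xbp1*, its main transcription factor, was at 73.8, 71.8, 72.4, and 65.8 FPKM in WT and 128, 127, 112, and 122 FPKM in HDAC1cKO-HDAC2HET samples, and *Ern1*, which encodes the sensor IRE1α that splices *Xbp1* mRNA, rose from 0.911 ± 0.0594 to 2.06 ± 0.106 FPKM. *Atf6* did not pass the test, at 4.38 and 4.40 FPKM, and *Hspa5*, the abundant chaperone BiP, rose by 0.17 on the log2 scale, from 282 ± 4.26 to 318 ± 21.3 FPKM (limma adjusted p = 0.0201). That call for *Hspa5* was lost without WT replicate 1 or HDAC1cKO-HDAC2HET replicate 2 or 4, with log2 values of 0.16, 0.16, and 0.17, and under quantile normalization, with 0.09. The heat shock genes were not uniform, since the stress-inducible *Hspa1a* did not pass (0.195 against 0.110 FPKM), *Hspa4l* and *Dnajb1* fell, and *Hsph1* rose from 37.4 ± 0.673 to 67.4 ± 7.70 FPKM. FPKM counts all reads of a gene, so spliced and unspliced *Xbp1* mRNA were not told apart. Ribosome biogenesis was less uniform than both lists, with 14 of 32 genes higher and 5 lower. *Bop1* and *Bysl*, factors of ribosome assembly, rose by 0.56 and 0.48 on the log2 scale.

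**Figure D3:**
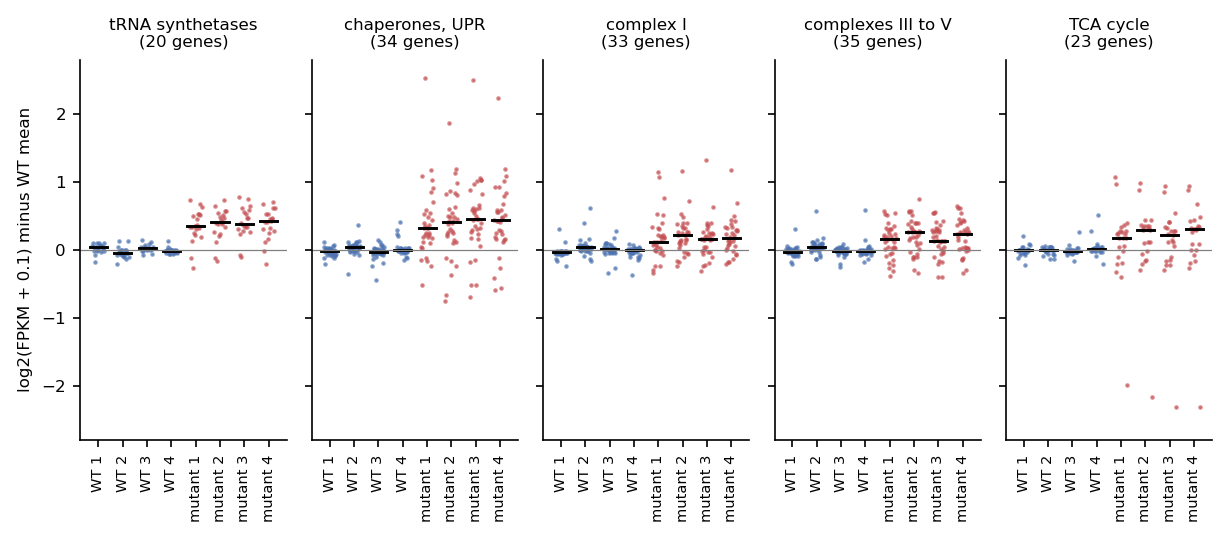
Genes of protein synthesis, folding, and mitochondria in each sample. Each point is a gene's log2(FPKM + 0.1) minus its WT mean in 1 WT sample (blue) or 1 HDAC1cKO-HDAC2HET sample (red, labelled mutant), and black bars are list medians. The synthetase and chaperone medians lie between 0.32 and 0.45 in the HDAC1cKO-HDAC2HET samples, and *Pcx* is the lone gene near -2.20 in the tricarboxylic acid (TCA) cycle.

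Promoters of a chaperone and of a synthetase are shown because the letters that the known stress factors bind were more frequent in these lists than among all promoters. The endoplasmic reticulum stress element, CCAAT and CCACG with 9 bases of any kind between them, was found in 7 of 27 chaperone promoters (25.9%), those of *Calr*, *Canx*, *Creld2*, *Dnajc3*, *Hsp90b1*, *Hspa5*, and *Pdia6*, against 0.186% of all 9151, and all 7 genes rose. TGATGNAA, the C/EBP-ATF response element, was found in 5 of 12 synthetase promoters (41.7%), those of *Aars*, *Gars*, *Iars*, *Tars*, and *Yars*, against 2.75% of all, and all 5 rose. Both elements were searched on both strands. The sequences are from RefSeq on build GRCm38.p6 with the element in capitals, *Creld2* from chr15:88819396-88819695 on the plus strand and *Tars* from chr15:11399609-11399908 on the minus strand.
Creld2: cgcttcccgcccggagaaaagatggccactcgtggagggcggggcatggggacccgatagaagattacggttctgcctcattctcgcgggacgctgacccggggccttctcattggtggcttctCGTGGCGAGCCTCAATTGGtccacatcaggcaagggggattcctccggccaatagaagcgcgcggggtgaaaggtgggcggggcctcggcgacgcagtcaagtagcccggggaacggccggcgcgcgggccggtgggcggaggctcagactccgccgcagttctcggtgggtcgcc
Tars: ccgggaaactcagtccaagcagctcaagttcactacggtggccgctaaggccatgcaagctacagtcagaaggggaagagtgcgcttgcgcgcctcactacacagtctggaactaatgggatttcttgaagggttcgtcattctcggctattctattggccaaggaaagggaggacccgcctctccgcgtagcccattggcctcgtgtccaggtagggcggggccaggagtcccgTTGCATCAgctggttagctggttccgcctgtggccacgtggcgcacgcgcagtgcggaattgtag
In both promoters the capitals show the element as read on the opposite strand. Of the 7 synthetase genes whose promoter window lacks the element, 5 rose as well. Of all 27 chaperone genes with a promoter window 22 rose, so the rises there were not limited to genes with the element. The share of promoters that hold an element is a property of the list as drawn up and not a result of these samples. The heat shock element, GAA, TTC, and GAA in a row with 2 bases of any kind between each, was found in the promoters of *Hspd1*, *Hspe1*, and *Hsph1* (11.1% against 0.525% of all), and these 3 genes rose. The NRF1 letters, GCGCA and GCGC with 1 base of any kind between them, were in 6 of 29 complex I promoters (20.7%) and 8 of 28 of complexes III to V (28.6%), against 11.7% of all.

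The replication and mitosis lists held about as many falls as rises. Among 38 genes of replication licensing and the fork 10 rose and 11 fell, and among 47 genes of mitosis 14 rose and 16 fell, with medians of 0.00 and -0.01. *Mki67*, the proliferation marker, was at 74.7, 74.5, 72.4, and 72.9 FPKM in WT and 75.2, 65.5, 70.3, and 62.0 FPKM in HDAC1cKO-HDAC2HET samples, with overlapping groups (log2 difference -0.11, limma adjusted p = 0.141). *Mcm2*, a subunit of the replicative helicase, rose by 0.37, and *Pcna*, the sliding clamp, fell by 0.23 on the log2 scale. The largest change in the mitosis list was *Pttg1*, which encodes securin, the inhibitor of separase, with 24.2, 19.9, 25.8, and 24.5 FPKM in WT and 47.8, 55.7, 57.1, and 54.6 FPKM in HDAC1cKO-HDAC2HET samples. *Espl1*, the separase gene itself, rose from 19.2 ± 0.450 to 30.0 ± 0.728 FPKM.

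Some genes that set entry into the cycle differed more widely. Of 17 cyclin and CDK genes 10 rose and 4 fell. *Ccne1*, cyclin E1, went from 39.1 ± 0.378 to 63.5 ± 4.67 FPKM, *Ccnd3*, the cyclin D3 of lymphocytes, from 88.5 ± 5.12 to 138 ± 6.15 FPKM, and *Ccnb1*, cyclin B1 of mitosis, from 46.6 ± 1.45 to 69.2 ± 2.93 FPKM. *Ccng2*, an atypical cyclin found in arrested cells, was at 22.2, 20.7, 22.4, and 21.2 FPKM in WT and 12.02, 8.13, 6.16, and 7.40 FPKM in HDAC1cKO-HDAC2HET samples. Among the CDK inhibitors, *Cdkn2d* rose from 34.4 ± 1.07 to 51.5 ± 0.440 FPKM. *Cdkn1b* (chromosome 6, 134920401 to 134925513), which encodes p27Kip1, was at 24.2, 20.9, 21.8, and 23.6 FPKM in WT and 12.8, 9.35, 10.02, and 10.05 FPKM in HDAC1cKO-HDAC2HET samples, a log2 change of -1.10 (SE 0.10, limma adjusted p = 6.61e-05), and *Cdkn1a*, p21Cip1, fell from 59.2 ± 3.93 to 42.4 ± 3.52 FPKM. The groups did not overlap for either gene, as for 50.3% of all genes tested. *Myc*, which drives growth of activated T cells, was at 197, 168, 180.2, and 166 FPKM in WT and 249, 267, 268, and 264 FPKM in HDAC1cKO-HDAC2HET samples, and *Mxd1*, which competes with MYC for its partner MAX, rose from 7.26 ± 0.515 to 14.3 ± 1.61 FPKM.

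DNA repair and apoptosis genes fell more often than they rose. Of 35 repair and damage response genes 20 fell and 6 rose (median -0.25). The median was -0.15 over the 16 of these in whose span no other annotated gene lies and -0.08 over the 16 without another nameless locus, with 8 falls and 5 rises in both cases. *Chek2*, the checkpoint kinase, was at 6.63, 8.35, 6.83, and 6.82 FPKM in WT and 2.97, 3.27, 2.87, and 3.34 FPKM in HDAC1cKO-HDAC2HET samples. *Nbn* and *Rad50*, subunits of the complex that senses broken ends, fell from 20.7 ± 1.21 to 11.5 ± 0.557 and from 17.8 ± 0.470 to 10.7 ± 0.475 FPKM, and *Xrcc5*, a subunit of the Ku end-joining complex, from 30.9 ± 1.06 to 19.6 ± 0.841 FPKM. *Gadd45g* and *Gadd45b*, stress-inducible genes that promote interferon-γ production in T cells, went the other way, from 15.7 to 39.5 and from 17.2 to 31.8 FPKM. Of 29 apoptosis genes 15 fell and 5 rose (median -0.24, and -0.43 and -0.36 under the same limits), and the falls held genes on both sides of the decision. *Cflar*, an inhibitor of caspase-8, was at 18.5, 15.3, 26.9, and 20.8 FPKM in WT and 7.49, 7.26, 7.54, and 6.73 FPKM in HDAC1cKO-HDAC2HET samples. *Bcl2*, which protects, and *Bcl2l11*, the killer BIM that it binds, fell together, from 27.5 ± 1.63 to 19.4 ± 3.17 and from 24.4 ± 1.93 to 13.3 ± 0.704 FPKM. The 5 rises were the death ligand and receptor genes *Fasl* (6.00 to 14.2 FPKM) and *Fas* (18.5 to 29.9 FPKM), the BCL-2 relatives *Bid* (9.51 to 22.2 FPKM) and *Bmf* (0.434 to 1.14 FPKM), and *Apaf1*, the scaffold of the apoptosome.

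Genes of T cell receptor signalling fell more often than they rose. Of 46 genes of the receptor and its proximal kinases and adaptors, 25 fell and 8 rose, with a median of -0.26 and between -0.30 and -0.23 in each HDAC1cKO-HDAC2HET sample. *Cd3e*, an invariant chain of the receptor, was at 187, 212, 202, and 196 FPKM in WT and 133, 133, 137, and 139 FPKM in HDAC1cKO-HDAC2HET samples. *Lck*, the kinase that phosphorylates it, was at 276, 287, 289, and 288 FPKM in WT and 216, 217, 227, and 221 FPKM in HDAC1cKO-HDAC2HET samples. Every HDAC1cKO-HDAC2HET sample was below every WT sample in both cases. *Cd5*, a negative regulator of receptor signals, fell from 341 ± 22.1 to 242 ± 22.7 FPKM, and the costimulator *Icos* from 93.1 ± 8.36 to 55.8 ± 7.71 FPKM. *Cd247* went against its partners, with 77.1, 82.3, 71.5, and 70.5 FPKM in WT and 135, 132, 127, and 136 FPKM in HDAC1cKO-HDAC2HET samples, although it encodes the ζ chain of the same receptor complex. *Cblb*, a ubiquitin ligase that restrains receptor signals, rose from 31.2 ± 7.68 to 68.8 ± 4.84 FPKM and *Sh2d1a*, which encodes the adaptor SAP, from 48.8 ± 5.07 to 133 ± 15.6 FPKM. *Sla* and *Lcp2* also fell, but each lies within the span of another gene, and their values share reads with it to an unknown degree. Another annotated gene also overlaps *Cd3e*, *Lck*, *Icos*, *Cd247*, and *Cblb*, so their values may share reads as well. Another nameless locus overlaps *Icos*, *Cd247*, and *Cblb*.

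Feedback regulators of the MAP kinases changed in opposite directions. *Dusp6* (chromosome 10, 99263231 to 99267489), the phosphatase of ERK, was at 68.9, 76.2, 75.6, and 73.0 FPKM in WT and 28.2, 24.0, 27.7, and 24.7 FPKM in HDAC1cKO-HDAC2HET samples, a log2 change of -1.49 (SE 0.06, limma adjusted p = 2.18e-06). *Spry1*, an inhibitor of the path from receptors to RAS, was at 57.1, 49.7, 63.0, and 62.3 FPKM in WT and 16.8, 14.1, 20.6, and 20.1 FPKM in HDAC1cKO-HDAC2HET samples. For both, every HDAC1cKO-HDAC2HET sample lay more than 2-fold below every WT sample, whereas their relatives *Dusp5* and *Spry2* rose from 31.0 ± 1.71 to 51.9 ± 3.39 and from 1.90 ± 0.341 to 4.22 ± 0.390 FPKM. Among the kinases, *Mapk11* and *Mapk13*, which encode p38β and p38δ, fell from 26.0 ± 1.84 to 12.3 ± 1.36 and from 1.01 ± 0.173 to 0.170 ± 0.107 FPKM, and *Nras* rose from 43.9 ± 11.5 to 79.8 ± 2.38 FPKM. The list as a whole had 10 rises and 16 falls in 36 genes.

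Cytokine receptors and their JAK kinases moved in both directions, with 11 rises and 11 falls in 33 genes. *Il7r* (chromosome 15, 9505788 to 9530176), the receptor for the survival cytokine IL-7, was at 2.15, 3.26, 1.99, and 2.05 FPKM in WT and 21.9, 20.4, 16.5, and 20.05 FPKM in HDAC1cKO-HDAC2HET samples, a log2 change of 3.03 (SE 0.16, limma adjusted p = 5.99e-06). *Il6ra* (chromosome 3, 89864059 to 89913196) went as far the other way, with 19.4, 23.8, 21.6, and 22.6 FPKM in WT and 2.66, 2.16, 2.88, and 2.49 FPKM in HDAC1cKO-HDAC2HET samples, a log2 change of -3.05 (SE 0.10, limma adjusted p = 9.19e-07). The groups lay far apart for both genes, and WT replicate 2 was the highest WT sample in each. *Jak2* fell from 138 ± 13.7 to 48.4 ± 4.62 FPKM and *Jak3*, the kinase of the common γ chain, from 91.2 ± 3.39 to 36.6 ± 2.196 FPKM, while *Il2rb*, a chain of the IL-2 and IL-15 receptors, rose from 174 ± 13.95 to 354 ± 18.2 FPKM and *Il10ra* from 10.5 ± 1.45 to 49.0 ± 4.51 FPKM. *Socs3*, which shuts off IL-6 signals, rose from 5.61 ± 0.305 to 20.9 ± 2.61 FPKM.

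Interferon-stimulated genes did not rise as a block. Of 43 members 17 rose and 7 fell, and 19 did not pass, among them *Ifit1* (8.17 against 6.08 FPKM) and *Mx1* (11.4 against 9.22 FPKM). The rises held genes that interferon-γ induces in mouse cells, such as the immunity-related GTPases *Irgm1* (67.4 to 145 FPKM) and *Iigp1* (68.7 to 169 FPKM). The falls held antiviral genes such as *Isg20*, an exonuclease (45.8 to 7.17 FPKM), and *Ifih1*, the sensor MDA5 of double-stranded RNA (56.3 to 20.3 FPKM). *Gbp2*, though a target of interferon-γ as well, fell from 627 ± 103 to 397 ± 52.5 FPKM. *Bst2*, the tetherin that holds virus at the cell surface, was at 115, 74.5, 95.6, and 78.6 FPKM in WT and 211, 321, 309.6, and 302 FPKM in HDAC1cKO-HDAC2HET samples. *Ifit3*, which binds foreign RNA, was at 4.11, 1.56, 4.44, and 2.75 FPKM in WT and 0.311, 0.409, 0.102, and 0.496 FPKM in HDAC1cKO-HDAC2HET samples.

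The promoters of *Bst2* and *Ifit3* are shown because they led the rises and the falls of the list and hold the same element. The interferon-stimulated response element, a pair of TTTC with 2 bases of any kind between them, or a pair of GAAA on the other strand, was found in 18 of 33 promoters of the list (54.5%) against 3.82% of all. Of these 18 genes 4 rose and 5 fell, so that genes that hold the letters moved in both directions. The sequences are from RefSeq on build GRCm38.p6, *Bst2* from chr8:71537423-71537722 on the minus strand and *Ifit3* from chr19:34583279-34583578 on the plus strand, with the element in capitals.
Bst2: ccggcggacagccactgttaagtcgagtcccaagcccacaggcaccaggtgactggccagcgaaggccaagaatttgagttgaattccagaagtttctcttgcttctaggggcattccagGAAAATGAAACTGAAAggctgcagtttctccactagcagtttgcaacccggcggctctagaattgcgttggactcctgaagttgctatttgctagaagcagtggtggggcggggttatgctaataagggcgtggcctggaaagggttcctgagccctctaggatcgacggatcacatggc
Ifit3: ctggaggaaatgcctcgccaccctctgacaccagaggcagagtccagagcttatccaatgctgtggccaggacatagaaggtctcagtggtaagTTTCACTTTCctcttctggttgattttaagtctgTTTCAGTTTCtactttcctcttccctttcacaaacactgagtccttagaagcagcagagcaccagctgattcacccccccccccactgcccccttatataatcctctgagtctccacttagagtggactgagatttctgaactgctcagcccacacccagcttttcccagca
Each holds 2 matches, which overlap in *Bst2* and lie apart in *Ifit3*.

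**Figure D4:**
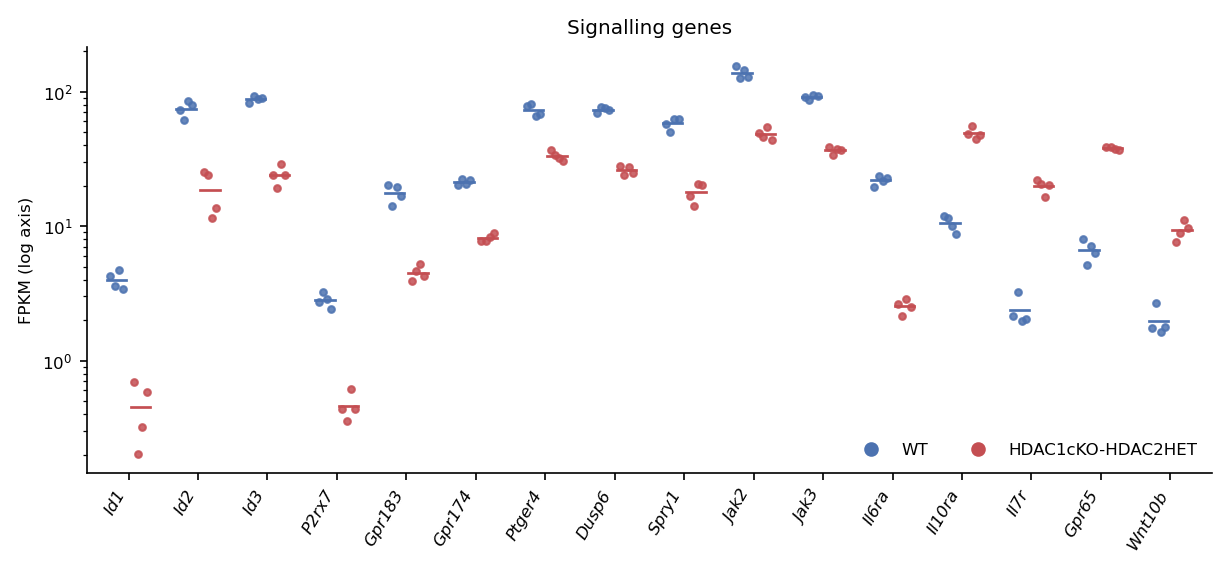
Signalling genes by sample. FPKM on a log axis is shown for each of the 4 WT and 4 HDAC1cKO-HDAC2HET samples, with bars at the group means. *Il7r* and *Gpr65* lie higher and *Il6ra*, *Dusp6*, and *Id1* lower in every HDAC1cKO-HDAC2HET sample than in any WT sample.

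Targets and receptors of the TGF-β and BMP path were mostly lower, with 14 falls and 2 rises in 25 genes (median -0.27, and -0.51 over the 13 in whose span no other annotated gene lies). The inhibitor of DNA binding genes, which respond to BMP and SMAD signals and hold back E proteins, fell most. *Id3* (chromosome 4, 136143497 to 136145755) was at 82.9, 92.1, 88.5, and 89.1 FPKM in WT and 24.1, 19.3, 28.7, and 24.0 FPKM in HDAC1cKO-HDAC2HET samples (log2 change -1.88, SE 0.11, limma adjusted p = 7.86e-06). *Id2* was at 72.7, 61.2, 84.7, and 78.8 FPKM in WT and 25.1, 23.9, 11.5, and 13.7 FPKM in HDAC1cKO-HDAC2HET samples. *Id1* was at 4.27, 3.59, 4.73, and 3.39 FPKM in WT and 0.697, 0.203, 0.319, and 0.583 FPKM in HDAC1cKO-HDAC2HET samples. *Id2* and *Id1* lay apart between the groups as well, though their HDAC1cKO-HDAC2HET samples differed among themselves by over 2-fold. The receptor gene *Tgfbr1* fell from 6.47 ± 0.497 to 3.44 ± 0.350 FPKM and *Bmpr1a* from 1.73 ± 0.151 to 0.727 ± 0.117 FPKM, whereas *Smad3* (2.05 against 2.71 FPKM) and *Smad7* (3.24 against 3.06 FPKM) did not pass the test. *Inhba*, which encodes an activin subunit, was 1 of the 2 rises, from 0.289 to 1.33 FPKM, beside *Smurf1*.

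G protein-coupled receptors and their RGS regulators showed 23 falls and 8 rises in 37 genes, 12 of the falls at least 2-fold, and a median of -0.52. *P2rx7*, an ATP-gated channel listed with them, was at 2.71, 3.23, 2.85, and 2.41 FPKM in WT and 0.436, 0.357, 0.612, and 0.436 FPKM in HDAC1cKO-HDAC2HET samples, and *Adora2b*, an adenosine receptor gene, went from 3.35 ± 0.226 to 1.01 ± 0.346 FPKM. *S1pr1*, which lets T cells leave lymph nodes, fell from 3.94 ± 0.682 to 1.61 ± 0.305 FPKM, and *Rgs1*, which dampens chemokine signals, from 81.2 ± 3.89 to 49.5 ± 6.99 FPKM. The largest rise was *Gpr65*, an acid-sensing receptor, with 8.08, 5.14, 7.10, and 6.27 FPKM in WT and 38.8, 38.9, 37.4, and 37.0 FPKM in HDAC1cKO-HDAC2HET samples, and *Gpr132* and *Ptgir*, the prostacyclin receptor gene, rose from 14.2 ± 1.36 to 28.4 ± 0.784 and from 2.70 ± 0.218 to 8.39 ± 0.376 FPKM. Receptor genes that lie within the span of another gene, such as *Gpr183*, are in the counts but their values are uncertain. Over the 19 members in whose span no other annotated gene lies, 9 fell and 5 rose, with a median of -0.21, and over the 21 without another nameless locus 11 fell and 5 rose, with a median of -0.35.

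The remaining signalling lists held rises and falls in similar numbers. In NF-κB signalling 9 of 26 rose and 11 fell. Its feedback inhibitor *Tnfaip3* fell from 19.13 ± 2.97 to 10.1 ± 0.970 FPKM, *Rel* from 36.2 ± 3.30 to 22.9 ± 1.99 FPKM, and the adaptor *Traf4* rose from 40.4 ± 2.28 to 98.4 ± 3.04 FPKM. In the PI3K path 10 of 33 rose and 12 fell (3 and 7 of the 14 in whose span no other annotated gene lies), with *Pik3r5*, a regulatory subunit of PI3Kγ, up from 3.43 ± 0.174 to 9.02 ± 0.730 FPKM and the lipid phosphatase *Inpp4b* down from 49.4 ± 6.59 to 28.1 ± 2.35 FPKM. Calcium genes divided into 14 rises and 12 falls in 34. *Cacnb3*, a calcium channel subunit, was at 4.08, 3.12, 2.94, and 2.62 FPKM in WT and 15.3, 17.9, 21.1, and 20.1 FPKM in HDAC1cKO-HDAC2HET samples, and *Orai1*, the pore of store-operated entry, fell from 99.8 ± 2.77 to 73.8 ± 6.71 FPKM. In the Wnt and Notch list 9 of 30 rose and 11 fell, but among the 17 members without another nameless locus in their span 2 rose and 9 fell, with a median of -0.42. *Wnt10b* rose from 1.96 ± 0.474 to 9.30 ± 1.45 FPKM and *Wnt10a* fell from 1.22 ± 0.244 to 0.176 ± 0.0401 FPKM. *Lef1* and *Axin2*, a partner and a target of β-catenin, fell from 69.6 ± 3.97 to 41.0 ± 2.06 and from 4.27 ± 0.334 to 1.66 ± 0.183 FPKM, and *Jag2*, a Notch ligand gene, rose from 0.920 ± 0.0854 to 4.35 ± 0.7995 FPKM. Among small GTPases *Rhoc* stood out, at 1.17, 1.03, 1.66, and 1.16 FPKM in WT and 10.9, 12.9, 12.01, and 11.5 FPKM in HDAC1cKO-HDAC2HET samples. *Rasgrp2*, which activates RAP1, rose from 3.59 ± 0.931 to 15.2 ± 5.18 FPKM with a wide spread among the HDAC1cKO-HDAC2HET samples.

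Most chromatin lists had more falls than rises. In the deacetylase family 10 of 17 members fell, *Hdac1* and *Hdac2* included, and 3 rose. *Hdac7*, a class IIa enzyme of thymocytes, was at 161, 155, 162, and 165 FPKM in WT and 92.1, 77.3, 102, and 83.5 FPKM in HDAC1cKO-HDAC2HET samples, and *Sirt5*, a mitochondrial sirtuin, fell from 6.59 ± 0.533 to 1.82 ± 0.536 FPKM, while *Sirt7* rose from 28.7 ± 1.09 to 58.1 ± 6.47 FPKM. The span of *Hdac7* overlaps that of *Slc48a1*, listed at 0 in every WT sample and at 38.1 to 45.7 FPKM in HDAC1cKO-HDAC2HET samples. The 2 genes may share reads to an unknown degree, so the values of *Hdac7* are uncertain. *Hdac3*, another class I enzyme, was at 47.4 ± 0.815 FPKM in WT and 51.0 ± 1.73 FPKM in HDAC1cKO-HDAC2HET cells (log2 difference 0.11), and its call was lost under quantile normalization (0.06) and without the intensity trend of the test. Genes of the complexes that hold HDAC1 and HDAC2 rose and fell about equally, with 17 rises and 13 falls in 45. *Rcor2* (chromosome 19, 7267325 to 7275225), a CoREST paralog that is low in WT T cells, was at 0.658, 0.306, 0.499, and 0.322 FPKM in WT and 4.59, 4.96, 5.48, and 5.48 FPKM in HDAC1cKO-HDAC2HET samples, a log2 change of 3.30 (SE 0.21, limma adjusted p = 1.08e-05). The NuRD helicase genes went apart, since *Chd3* fell from 36.4 ± 1.98 to 15.5 ± 0.564 FPKM and *Chd4* rose from 118 ± 3.51 to 164 ± 9.11 FPKM. The NuRD subunit gene *Gatad2a* rose from 32.8 ± 0.746 to 60.5 ± 2.64 FPKM.

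Acetyltransferases oppose deacetylases, and bromodomain proteins read the acetyl mark. Of 30 genes of these kinds 17 fell and 5 rose (median -0.25, and -0.13 over the 11 in whose span no other annotated gene lies). *Crebbp* and *Ep300*, the paired acetyltransferases CBP and p300, fell from 8.38 ± 0.222 to 4.35 ± 0.304 and from 15.99 ± 0.488 to 12.2 ± 0.551 FPKM. In DNA methylation 10 of 13 fell and none rose, and the 3 that did not pass included *Dnmt1* (113 against 111 FPKM) and *Uhrf1*. The TET enzymes, which oxidize methylcytosine, all fell. *Tet2* was at 7.24, 6.23, 6.19, and 8.63 FPKM in WT and 3.56, 3.00, 2.96, and 3.96 FPKM in HDAC1cKO-HDAC2HET samples. *Tet3* was at 15.1, 22.6, 14.3, and 14.4 FPKM in WT and 10.6, 9.78, 10.8, and 10.2 FPKM in HDAC1cKO-HDAC2HET samples. *Tet1* was at 0.631, 0.501, 0.545, and 0.670 FPKM in WT and 0.219, 0.221, 0.200, and 0.184 FPKM in HDAC1cKO-HDAC2HET samples. The groups were apart for all 3, and WT replicate 2 stood out for *Tet3*. Of 42 histone methyltransferase and demethylase genes 23 fell and 7 rose (median -0.20, and -0.10 over the 15 under that limit), and the largest fall was that of *Kdm6b*, a demethylase of the Polycomb mark, from 16.03 ± 0.726 to 5.61 ± 0.335 FPKM. *Kdm3a* fell from 33.1 ± 1.82 to 16.4 ± 1.09 FPKM. Polycomb genes had 14 falls, among them *Ezh2* (97.1 to 81.0 FPKM) and *Bmi1* (18.6 to 9.67 FPKM), and 8 rises in 28. Among remodellers, 18 of 38 fell and 10 rose. Over the 11 in whose span no other annotated gene lies, 4 fell and 3 rose, with a median of -0.06. Over the 20 without another nameless locus, 10 fell and 6 rose. The 2 members past 2-fold were both rises, *Chd2* from 15.7 ± 1.52 to 45.1 ± 2.83 FPKM and *Satb1*, an organizer of T cell chromatin, from 61.3 ± 3.44 to 146 ± 14.5 FPKM.

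Several genes of the cell surface and the matrix with low levels in WT were many times higher in HDAC1cKO-HDAC2HET cells. Of 37 extracellular matrix and protease genes 17 rose and 7 fell, 12 of the rises at least 2-fold. *Spp1*, the cytokine and matrix protein osteopontin, was at 5.08, 11.5, 5.61, and 8.29 FPKM in WT and 67.0, 56.9, 48.9, and 74.3 FPKM in HDAC1cKO-HDAC2HET samples. *Plaur*, the urokinase receptor gene, went from 0.819 ± 0.245 to 6.91 ± 1.94 FPKM and *Nid1*, a basement membrane protein gene, from 0.414 ± 0.109 to 3.14 ± 0.739 FPKM, and *Adam10*, a sheddase, fell from 69.7 ± 3.09 to 34.8 ± 1.49 FPKM. Among 29 adhesion receptors of the immunoglobulin and selectin types 12 rose and 6 fell. *Madcam1* (chromosome 10, 79664559 to 79668537), the gut vessel ligand of integrin α4β7, was at 0.242, 0.213, 0.219, and 0.172 FPKM in WT and 6.97, 7.47, 8.53, and 7.75 FPKM in HDAC1cKO-HDAC2HET samples, a log2 change of 4.64 (SE 0.10, limma adjusted p = 2.03e-07). *Icam1*, the ligand of LFA-1, was at 11.03, 11.5, 7.16, and 7.66 FPKM in WT and 43.1, 40.3, 43.3, and 43.2 FPKM in HDAC1cKO-HDAC2HET samples, and *Mcam* rose from 0.287 ± 0.0861 to 4.14 ± 0.482 FPKM. *Nrp1*, a semaphorin receptor gene, fell from 23.9 ± 8.67 to 3.26 ± 0.583 FPKM. In the integrins 6 of 16 rose and 2 fell, none 2-fold, and *Itgb3* led with 9.02 to 16.6 FPKM. *Cldn10*, a claudin of epithelial tight junctions, was at 0.128, 0.116, 0.213, and 0.178 FPKM in WT and 1.97, 2.30, 2.23, and 2.55 FPKM in HDAC1cKO-HDAC2HET samples, while *Ctnna1*, α-catenin, fell from 28.6 ± 1.36 to 13.2 ± 1.21 FPKM.

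Most tubulin genes rose, among them isotypes typical of other tissues. Of 13 tubulin genes 9 rose and 1 (*Tubg2*) fell, with a median of 0.33 (0.49 over the 8 in whose span no other annotated gene lies). *Tubb6* was at 9.70, 7.59, 9.60, and 8.53 FPKM in WT and 64.0, 65.1, 56.9, and 64.3 FPKM in HDAC1cKO-HDAC2HET samples, a log2 change of 2.81 (SE 0.09, limma adjusted p = 8.01e-07). *Tubb2a* and *Tubb2b* rose from 6.15 ± 0.749 to 21.1 ± 1.39 and from 5.69 ± 0.485 to 17.4 ± 1.72 FPKM, and as near-identical copies they can share reads. *Tubb5*, the main β-tubulin gene of lymphocytes, was at 765 FPKM in WT and 769 FPKM in HDAC1cKO-HDAC2HET cells and did not pass. In the actin list 27 of 61 rose and 18 fell. *Tpm2*, the β-tropomyosin of muscle, was at 0.127, 0.0930, 0.194, and 0.0507 FPKM in WT and 5.87, 7.19, 6.41, and 6.57 FPKM in HDAC1cKO-HDAC2HET samples. *Lmna*, the A-type lamin gene, was at 0.998, 0.934, 0.837, and 1.29 FPKM in WT and 6.76, 9.08, 5.99, and 7.62 FPKM in HDAC1cKO-HDAC2HET samples, *Gsn*, gelsolin, which severs actin filaments, rose from 2.14 ± 0.318 to 11.9 ± 0.830 FPKM, and *Vim*, vimentin, the abundant intermediate filament gene, fell from 390.2 ± 22.5 to 226 ± 26.8 FPKM. Among 19 tetraspanins 8 rose and 4 fell, with *Tspan6* up from 3.49 ± 0.383 to 10.1 ± 0.787 FPKM and *Cd37* and *Tspan32*, which are typical of leukocytes, down from 47.5 ± 2.32 to 21.4 ± 0.652 and from 25.7 ± 1.28 to 9.03 ± 0.688 FPKM.

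Genes that WT cells keep silent were defined as those under 0.1 FPKM in every WT sample and at least 1 FPKM in every HDAC1cKO-HDAC2HET sample. Since the rule uses the values, it describes them and tests nothing. Of 27642 genes under 0.1 FPKM in every WT sample, 10 met it, 5 of them protein-coding, against 4 genes, 3 of them protein-coding, in the mirror image. *Bhlha15* (chromosome 5, 144190286 to 144194441), which encodes MIST1, a factor of secretory cells, was at 0.0369, 0.0369, 0.0157, and 0.0363 FPKM in WT and 1.82, 2.15, 1.45, and 1.87 FPKM in HDAC1cKO-HDAC2HET samples. *Adgrd1* (chromosome 5, 129096750 to 129204599), an adhesion G protein-coupled receptor gene, was at 0.0470, 0.0297, 0.0319, and 0.0638 FPKM in WT and 2.25, 1.32, 1.20, and 1.99 FPKM in HDAC1cKO-HDAC2HET samples. *Adamts14* (chromosome 10, 61197112 to 61273438), a protease that trims procollagen, was at 0.0220, 0.00884, 0.00548, and 0.0269 FPKM in WT and 1.06, 1.46, 1.99, and 1.72 FPKM in HDAC1cKO-HDAC2HET samples. *Pom121l2* (chromosome 13, 21981194 to 21988734) was at 0.0848, 0.0378, 0.0317, and 0.0248 FPKM in WT and 2.14, 1.08, 1.31, and 1.01 FPKM in HDAC1cKO-HDAC2HET samples. All 4 stayed at or below 2.25 FPKM, and each had a value above 0 in every WT sample. The counts of protein-coding genes became 8 without WT replicate 3 and, in the mirror image, 5 without WT replicate 2.

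The remaining protein-coding gene, *Slc48a1*, had 38.1 to 45.7 FPKM in HDAC1cKO-HDAC2HET samples, was listed at 0 in each WT sample, and overlaps *Hdac7* with its span. The mirror image held *Kbtbd4*, *Scrn3*, and *Prr15*, which were listed at 0 in all HDAC1cKO-HDAC2HET samples and at 4.62 to 5.09, 3.05 to 4.01, and 1.09 to 1.29 FPKM in WT, and each overlaps another gene. Overlapping genes may share reads to an unknown degree, so the values of these 4 genes are given as listed and no fold is drawn from them. Of 20 germline and placental genes with a value, 17 were too low to test and 9 were at 0 in every sample, and *Stag3*, a meiotic cohesin subunit, was the only one to rise, from 0.784 to 1.76 FPKM. Among 15 neuronal genes 9 rose and 4 fell. *Uchl1*, a neuronal deubiquitinase, rose from 0.954 ± 0.141 to 4.34 ± 0.606 FPKM and *Map2*, which binds microtubules in dendrites, fell from 0.649 ± 0.0989 to 0.0874 ± 0.0392 FPKM. Of 12 muscle genes 4 rose (33.3%) and 1 fell. The rises held *Tnnt1*, troponin T (5.26 to 13.9 FPKM), and *Ckb*, creatine kinase (55.7 to 125 FPKM). Of 9 epithelial genes 2 rose (22.2%), among them *Epcam* from 1.31 to 2.88 FPKM, and 1 fell by at least 2-fold. Over all genes tested 24.2% rose, so neither count sets these 2 lists apart.

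**Figure D5:**
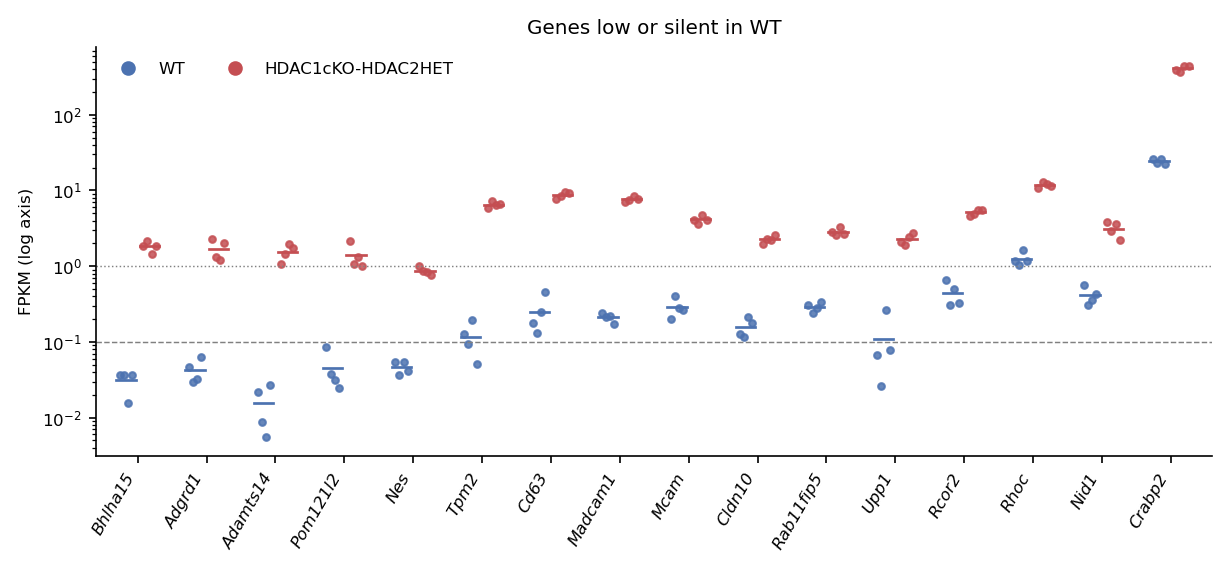
Genes with low values in WT, drawn with *Crabp2*, which was not low there. FPKM on a log axis is shown for each of the 4 WT and 4 HDAC1cKO-HDAC2HET samples, with bars at the group means. The lines mark 0.1 and 1 FPKM. *Crabp2* and *Rhoc* lie above the upper line in every WT sample. *Bhlha15*, *Adgrd1*, *Adamts14*, and *Pom121l2* lie below the lower line in every WT sample and above the upper line in every HDAC1cKO-HDAC2HET sample.

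The genes past 2-fold were also described by the base content of their promoters. The ratio of CpG dinucleotides observed to those expected from the base content had a median of 0.788 over the 300-base windows of 9151 tested genes (quartiles 0.603 and 0.931). It was 0.672 over 602 windows of the higher genes (quartiles 0.445 and 0.821) and 0.685 over 557 of the lower genes (quartiles 0.366 and 0.879). Both medians were below that of all genes, while the ranges between the quartiles overlapped. *Bhlha15*, *Adamts14*, and *Pom121l2* had ratios of 0.514, 1.01, and 0.423.

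The largest differences among protein-coding genes of at least 5 FPKM in either group, apart from cytotoxic effector genes, were not gathered in a single program. *Ramp3*, which escorts the receptors of calcitonin peptides to the surface, was at 3.64, 1.27, 3.73, and 3.08 FPKM in WT and 82.2, 76.1, 62.4, and 71.7 FPKM in HDAC1cKO-HDAC2HET samples. *Ccdc184*, whose role is not well known, was at 0.584, 0.208, 0.326, and 0.264 FPKM in WT and 12.5, 13.8, 13.4, and 13.03 FPKM in HDAC1cKO-HDAC2HET samples. On the side of the falls, *Nt5e* (chromosome 9, 88327197 to 88372092), which encodes CD73, the surface enzyme that makes adenosine, was at 6.35, 8.17, 8.92, and 8.36 FPKM in WT and 0.272, 0.222, 0.274, and 0.227 FPKM in HDAC1cKO-HDAC2HET samples, a log2 change of -4.52 (SE 0.12, limma adjusted p = 5.52e-07). *Bdh2*, a cytoplasmic dehydrogenase linked to iron-binding siderophores, was at 5.86, 9.15, 13.6, and 8.66 FPKM in WT and 0.408, 0.328, 0.355, and 0.299 FPKM in HDAC1cKO-HDAC2HET samples. *Klf2*, a factor of quiescence and of lymph node exit, was at 17.4, 22.0, 22.0, and 22.7 FPKM in WT and 2.46, 2.42, 1.79, and 2.53 FPKM in HDAC1cKO-HDAC2HET samples. *Pou2af1*, the coactivator OCA-B, fell from 16.7 ± 3.55 to 1.14 ± 0.0638 FPKM, *Ryk*, a Wnt receptor gene, from 8.35 ± 0.718 to 0.740 ± 0.118 FPKM, and *Stfa3*, a cysteine protease inhibitor gene with close paralogs that can share reads, from 85.9 ± 14.9 to 8.09 ± 3.61 FPKM. These genes were picked among those whose groups do not overlap, so that every sample of a group lies on its own side by that rule. The enzyme gene *Nt5e* and the adenosine receptor gene *Adora2b* thus fell together, as did *Klf2* and its known target *S1pr1*. *Snn* is also among the 10 largest falls, but it was listed at 0 in 2 HDAC1cKO-HDAC2HET samples. It overlaps 2 other genes and may share reads with them to an unknown degree. It was at 6.64, 9.29, 8.44, and 9.63 FPKM in WT and 1.76, 0, 1.90, and 0 FPKM in HDAC1cKO-HDAC2HET samples, and no fold is drawn from these values. The cytotoxic and effector genes among the 10 largest rises were *Ly6c1*, *Ifng*, *Klrk1*, *Prf1*, and *Gzmb*, with folds of 114, 84.0, 102, 66.2, and 29.7.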

How the data were processed

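RNA-seq was done on 4 WT and 4 HDAC1cKO-HDAC2HET samples, grouped by their labels. Per the study's methods, the authors aligned 50-base single reads by TopHat (mouse build mm10), and Cufflinks gave the deposited FPKM. The files list nameless loci that differ from library to library, so loci appear to have been assembled in each library on its own. The labels' processing notes name STAR (2.5.2b), Subread (1.5.1), and edgeR instead, whose counts are not analysed here. Confidence bounds given by Cufflinks were used to estimate depth and not in the tests.

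FPKM already divides by length and depth, so no count test was run. Depth was estimated from low values and their confidence bounds. The fragment numbers that these imply were whole for 83.2% to 87.6% of the low genes of a library. Nameless loci were matched to genes at a share of 0.8 of the joint span. Genes with a matched locus at 0 in a sample (3437) or with unlike loci (86) were left out. Genes with a mean of at least 0.1 FPKM were tested with limma (3.58.1 in R 4.3.3) with an intensity trend on log2(FPKM + 0.1). P-values were adjusted by the Benjamini-Hochberg method over all 15148 genes, and genes with an adjusted p of at most 0.05 and a fold change of at least 2 were counted as 2-fold changes. On data simulated for this comparison, the procedure found 82 of 100 genes changed by 1.5 and 97 of 100 changed by 3 on the log2 scale, with 2 false calls among the unchanged rest of the 15148 genes. Only calls that also passed the 2-fold limit were counted there, so calls at the adjusted p alone were not checked. The simulation changed 200 genes, far fewer than passed the adjusted p in the data.

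The members and the gene lists were chosen with earlier results of these data known, and no list was tested as a set. Some list members are not reported here. Genes were named as the deleted genes, as key genes or the 4 largest rises and falls of a list, as the 10 largest rises and falls among protein-coding genes of at least 5 FPKM in a group whose groups do not overlap, or as silent genes; of these, the ones described were selected with values in view, and so were the other genes named to account for a small count, a motif, or a partner. Errors are SDs over 4 samples. Replicate numbers did not pair the samples: the correlations of same-numbered samples were 0.01, -0.01, 0.02, and 0.06. Alternatives changed the pseudocount, filter, scaling, matching, weights, trend, gene types, replicate block, and samples. A sex covariate was not fitted, since the condition set for it, both sexes in both groups, was not met. All samples of both groups read as female. *Xist*, the marker of female cells, was at 58.9 to 65.2 FPKM in WT and 26.0 to 33.7 FPKM in HDAC1cKO-HDAC2HET samples. The Y-linked *Ddx3y*, *Eif2s3y*, and *Kdm5d* did not exceed 0.102 FPKM in any sample. Promoters, 250 bases before to 50 after the start, are RefSeq's on GRCm38.p6, and motifs were searched on both strands.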

Additional observations from a re-analysis of the deposited data

Results flagged for a closer look

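For each named gene, the 4 samples of a group were searched for 1 that lay far from the other 3 (by the critical value of Dixon for the gap to the nearest sample). This set a sample apart in 28 of 492 groups of 4, and chance alone sets a sample apart in about 1 in 20. Beside each value, the range of the other 3 samples of the group is given. In WT replicate 1, it was so for *Cblb* (42.7 FPKM, the highest, against 26.9 to 27.9), *Klf2* (17.4 FPKM, the lowest, against 22.0 to 22.7), *Mapk13* (1.26 FPKM, the highest, against 0.904 to 0.936), *Pcna* (259 FPKM, the lowest, against 265 to 265.1), and *Tspan32* (23.8 FPKM, the lowest, against 26.2 to 26.6). In WT replicate 2, it was so for *Chek2* (8.35 FPKM, the highest, against 6.63 to 6.83), *Cs* (90.2 FPKM, the highest, against 85.8 to 86.5), *Il7r* (3.26 FPKM, the highest, against 1.99 to 2.15), *Kdm6b* (17.1 FPKM, the highest, against 15.6 to 15.8), *Smurf1* (7.02 FPKM, the highest, against 6.13 to 6.27), *Tet3* (22.6 FPKM, the highest, against 14.3 to 15.1), and *Wnt10b* (2.66 FPKM, the highest, against 1.63 to 1.78). In WT replicate 3, it was so for *Bhlha15* (0.0157 FPKM, the lowest, against 0.0363 to 0.0369) and *Uhrf1* (160.3 FPKM, the highest, against 136 to 139). In HDAC1cKO-HDAC2HET replicate 1, it was so for *Adora2b* (1.53 FPKM, the highest, against 0.806 to 0.871), *Cs* (183.8 FPKM, the highest, against 158 to 161), and *Lss* (26.7 FPKM, the highest, against 16.5 to 18.1). In HDAC1cKO-HDAC2HET replicate 2, it was so for *Icam1* (40.3 FPKM, the lowest, against 43.1 to 43.3). In HDAC1cKO-HDAC2HET replicate 3, it was so for *Chd4* (178 FPKM, the highest, against 159 to 161), *Espl1* (31.1 FPKM, the highest, against 29.5 to 29.7), *Fasn* (82.3 FPKM, the highest, against 71.7 to 73.4), *Ifih1* (25.5 FPKM, the highest, against 18.2 to 18.9), *Klf2* (1.79 FPKM, the lowest, against 2.42 to 2.53), *Ndufb5* (89.8 FPKM, the highest, against 79.7 to 80.7), *Sh2d1a* (156 FPKM, the highest, against 123 to 127), and *Tubb6* (56.9 FPKM, the lowest, against 64.0 to 65.1). In HDAC1cKO-HDAC2HET replicate 4, it was so for *Bcl2l11* (14.3 FPKM, the highest, against 12.8 to 13.04) and *Plaur* (9.80 FPKM, the highest, against 5.64 to 6.21). No call of these genes was lost or gained without the sample in question. HDAC1cKO-HDAC2HET replicate 3, which has the lowest estimated depth, was set apart 8 times, WT replicate 2 was set apart 7 times, and whether depth has a part in this was not tested.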

How the results depend on the processing

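The numbers of 2-fold changes, 848 higher and 845 lower, and of genes with an adjusted p of at most 0.05, 7845, fell to 532 and 502 of the 2-fold changes with a mean of at least 1 FPKM required and to 417 and 326 with a pseudocount of 1, which shrinks the changes of low genes. The 2-fold changes rose to 957 and 1004 with a pseudocount of 0.01 and went to 943 and 734 with quantile normalization. With genes listed by name in every sample alone, 4292 in all, they were 225, 191, and 1025. With genes over which no other annotated gene lies, a setting chosen after seeing the data like the next, they were 467, 400, and 3727 of 7126 tested, and with genes over which no other nameless locus lies, 604, 518, and 4690 of 8822 tested. These 3 settings test fewer genes. Without 1 sample at a time the 3 counts were 805 to 870, 775 to 856, and 7181 to 7726. With the replicate block they were 824, 819, and 7115, and the block lost no call of a named gene; the numbers did not pair the samples. Quantile normalization moved the share of higher genes among 2-fold changes from 50.1% to 56.2% and changed the sign of the median of 3 of 51 program lists, and upper quartile scaling of none. Limited to genes over which no other annotated gene or no other nameless locus lies, the median changed sign in 6 and 5 lists, and moved by over 1.5 times or changed sign in 31 and 25. The median of 33 of the 51 lists lay above that of all genes, and of 21 where genes listed by name alone were tested (33 to 36 without 1 sample). Protein-coding genes silent in WT, 5 as reported, were 12 with at least 0.5 FPKM required in HDAC1cKO-HDAC2HET samples, 3 with under 0.05 FPKM in WT, and 1 with exactly 0 in WT, and 5 to 8 without 1 sample. In the mirror image the 3 genes became 7 at 0.5 FPKM and 3 to 5 without 1 sample. *Hdac1* and *Hdac2* kept their calls in every setting that tested them, at -3.38 to -3.11 and -0.78 to -0.72 on the log2 scale. Of 232 named genes past the threshold, 230 kept their call in each setting that tested them, *Hspa5* and *Hdac3* lost it in at least 1, and none reversed. The named genes were selected with values in view, many of them as large changes, so this share does not hold for the small changes in the list counts. A list member not described here, with a log2 difference of 0.13, lost its call in 11 of 19 settings. Of 16 named genes that did not pass, 8 passed in at least 1 setting, *Smad3*, *Hspa1a*, and *Dars* in 4 each, *Srebf2* and *Mki67* in 3, and *Mvk*, *Fasn*, and *Dnmt1* in 1. The tests used FPKM alone, without the counting error of single values, and low genes are the least precise.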
